A study of Mus musculus with 18 samples.

Results

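DNA methylation was read in 7 windows of the mouse genome that hold Sall4, the gene deleted in this study, the DNA methyltransferase genes Dnmt1, Dnmt3a, Dnmt3b and Dnmt3l, and the histone demethylase genes Kdm5b and Kdm6b. The members are the CpGs listed in any of the 18 libraries inside fixed mm9 windows, chosen by position and not by their values. They number 584 of the 1207536 CpG positions listed on the autosomes and X. The windows hold 116 CpGs for Sall4 (chr2:168570001-168596000), 64 for Dnmt1 (chr9:20708001-20761000), 108 for Dnmt3a (chr12:3803001-3918000), 49 for Dnmt3b (chr2:153470001-153515000), 34 for Dnmt3l (chr10:77500001-77530000), 69 for Kdm5b (chr1:136452001-136533000) and 144 for Kdm6b (chr11:69209001-69231000). No annotation of mm9 was used, so exons, introns and UTRs are not analysed here, and a window may include sequence of neighbouring genes.

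Each library is reduced representation bisulfite sequencing of 1 oocyte, an assay that reads DNA fragments cut at MspI sites. The wild-type oocytes (WT) came from Sall4 fl/fl females and thus carry the floxed alleles too, and the knockout oocytes (KO) from Sall4 fl/fl; Zp3-Cre females, whose Cre is driven by the Zp3 promoter, active in growing oocytes. Secondary follicle oocytes (SF) gave 7 WT and 5 KO libraries, and early antral follicle oocytes (EAF) gave 4 WT and 2 KO libraries. The labels give the ages P12.5 and P17.5 without tying them to a stage, name no animal or strain and do not say which part of Sall4 is floxed. Because nothing says which oocytes came from separate animals, a group counts as 1 sample. No test of a difference between groups was made, and every difference below describes these oocytes.

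Sall4 is a zinc finger transcription factor of stem cells and germ cells. Dnmt1 copies methylation onto newly made DNA, and growing oocytes use a start of the gene that other cells do not. Dnmt3a, helped by Dnmt3l, which has no catalytic activity of its own, lays down most new methylation in the growing oocyte, largely inside transcribed genes, while Dnmt3b is the other new-methylation enzyme. Kdm5b removes methyl groups from lysine 4 of histone H3, a mark of active starts that repels the Dnmt3a and Dnmt3l pair. Kdm6b removes them from lysine 27 of histone H3, a Polycomb mark.

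The start regions of 3 of the genes could be recognised among the listed CpGs, because the spacing of CG in their RefSeq promoter sequences (GRCm38.p6) matched at least 10 listed positions at 1 offset, with no listed CpG off a CG. They are shown because they separate the CpG-dense start regions from the rest of the windows, and because the printed Dnmt1 start is a dense region read in several SF oocytes of both genotypes. Dnmt1 has other starts, and whether the printed one is the start that growing oocytes use was not tested. Each sequence runs 5′ to 3′ from 250 bases before the start to 50 after it, in lower case, with in capitals the CGs that coincide with a listed CpG.
Dnmt1 promoter 3: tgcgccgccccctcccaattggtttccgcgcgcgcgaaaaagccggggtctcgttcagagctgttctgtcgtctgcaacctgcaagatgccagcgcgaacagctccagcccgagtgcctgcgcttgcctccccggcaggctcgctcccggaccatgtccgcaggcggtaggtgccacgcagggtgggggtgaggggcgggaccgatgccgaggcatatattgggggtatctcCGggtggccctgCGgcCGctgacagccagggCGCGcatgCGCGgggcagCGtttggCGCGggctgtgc
Dnmt3a promoter 2: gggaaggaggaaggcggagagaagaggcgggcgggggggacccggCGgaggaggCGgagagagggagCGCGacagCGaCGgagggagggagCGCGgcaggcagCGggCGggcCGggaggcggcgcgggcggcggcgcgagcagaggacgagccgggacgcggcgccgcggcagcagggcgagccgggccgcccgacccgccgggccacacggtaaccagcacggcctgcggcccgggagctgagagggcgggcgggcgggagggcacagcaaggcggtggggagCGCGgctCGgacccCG
Kdm5b promoter 1: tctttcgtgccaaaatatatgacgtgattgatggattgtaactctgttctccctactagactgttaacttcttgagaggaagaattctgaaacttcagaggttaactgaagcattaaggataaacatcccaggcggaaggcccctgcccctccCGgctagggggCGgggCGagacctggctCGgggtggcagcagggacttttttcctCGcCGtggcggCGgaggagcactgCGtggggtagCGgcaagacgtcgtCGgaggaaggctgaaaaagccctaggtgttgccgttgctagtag
In GRCm38.p6 these are chr9:20952574-20952873 on the minus strand, chr12:3806910-3807209 on the plus strand and chr1:134559928-134560227 on the plus strand. The matched CpGs lie at 20757026 to 20757084, 3806955 to 3807208 and 136456658 to 136456761 in mm9, and number 10 of the 33 CGs of the Dnmt1 sequence, 15 of 47 for Dnmt3a and 10 of 17 for Kdm5b. None of 31057 other promoters that hold a CG met that rule in any of the 7 windows. That number includes promoters with fewer than 10 CGs, which could not meet it, and the rule was set after the data were seen. It therefore does not measure how specific the rule is. The other promoter sequences held for Dnmt1, Dnmt3b and Dnmt3l did not meet it. Dnmt3a promoter 3, at chr12:3891494-3891793 in GRCm38.p6, did not meet it either, so its CGs were not placed among the listed CpGs. At the printed Dnmt3a start the matched CpGs have the same coordinates in mm9 and GRCm38.p6. If the builds also agree at promoter 3, it overlaps the listed CpGs of chr12:3891713-3891930, which was not tested. A Dnmt3a promoter that overlaps the printed one met the rule, and Sall4 and Kdm6b promoter sequences were not used here.

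A methylation level here is the percentage of reads that are methylated, summed over CpGs, and a read that spans several CpGs is counted at each. CpGs were split into CpG-dense, with at least 10 listed CpGs within 100 bp on either side, and CpG-poor. The cut is not sharp in these windows, since 40 CpGs had 9 such neighbours, the CpG itself counted, and 47 had 10. Read sums of whole libraries ran from 464271 to 6514029, and the 7 windows had between 9 listed CpGs in SF WT replicate 3 and 189 in SF KO replicate 1. Of 11 WT and 7 KO oocytes, reads fell in the Kdm6b window in all, in Sall4 in 8 and 7, in Dnmt1 in 9 and 7, in Dnmt3a in 10 and 7, in Kdm5b in 5 and 5, in Dnmt3b in 4 and 5 and in Dnmt3l in 3 and 3. Every SF KO library had more reads than every SF WT library, at least 3688032 against at most 3662592, and the part of depth in the SF differences was not tested. Over CpG-poor sites of the whole genome the SF KO oocytes ran from 10.8% to 12.1% apart from replicate 1, which was at 30.2% and stands apart from its group. No pair of libraries had identical counts at more than 11.8% of its shared CpGs.

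In reads summed over a group, the CpG-poor sites of the 7 windows were methylated above the level of the genome in WT and below it in KO. By oocyte this did not hold for SF KO, whose median was 11.3% in the windows and 11.2% over the genome. Summed over SF oocytes, 1106 of 2007 reads (55.1%) were methylated in WT and 497 of 4433 (11.2%) in KO. Summed over EAF oocytes, 361 of 619 reads (58.3%) were methylated in WT and 19 of 922 (2.06%) in KO. CpG-poor sites of the whole genome were at 20.4%, 15.7%, 27.6% and 12.3% in SF WT, SF KO, EAF WT and EAF KO. The KO minus WT difference was thus -43.9 percentage points at SF and -56.3 at EAF in the windows, against -4.76 and -15.2 over the genome. Restricted to CpGs listed in both groups, the differences were -43.5 points over 112 CpGs at SF and -49.0 points over 42 CpGs at EAF. Without SF KO replicate 1 the SF difference was -47.5 points, and without SF WT replicate 7 it was -34.2. Of the 1106 methylated SF WT reads, 439 lay in the Sall4 window, 432 of them in 1 stretch. The windows did not all go the same way at SF. Dnmt3b and Dnmt3l were at 0% in WT, each in 1 oocyte, and at 13.7% and 9.01% in KO, while each of the other windows was lower in KO.

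Oocyte by oocyte, the SF WT levels were 57.5%, 20.1%, 0%, 59.0%, 36.1%, 80.5% and 94.7% for replicates 1 to 7, a mean of 49.7% ± 33.3 (SD, n = 7 oocytes). The SF KO levels were 17.3%, 0%, 11.8%, 5.15% and 11.3%, a mean of 9.10% ± 6.65 (SD, n = 5 oocytes). The SF groups overlap only through SF WT replicate 3, with 0 of 46 reads methylated, the library with the fewest listed CpGs in the windows. The EAF WT levels were 75.9%, 87.0%, 71.8% and 41.9%, and the EAF KO levels 0% and 2.32%, with no overlap. The mean was 69.2% ± 19.2 (SD, n = 4 oocytes) in EAF WT and 1.16% ± 1.64 (SD, n = 2 oocytes) in EAF KO.

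**Figure D1:**
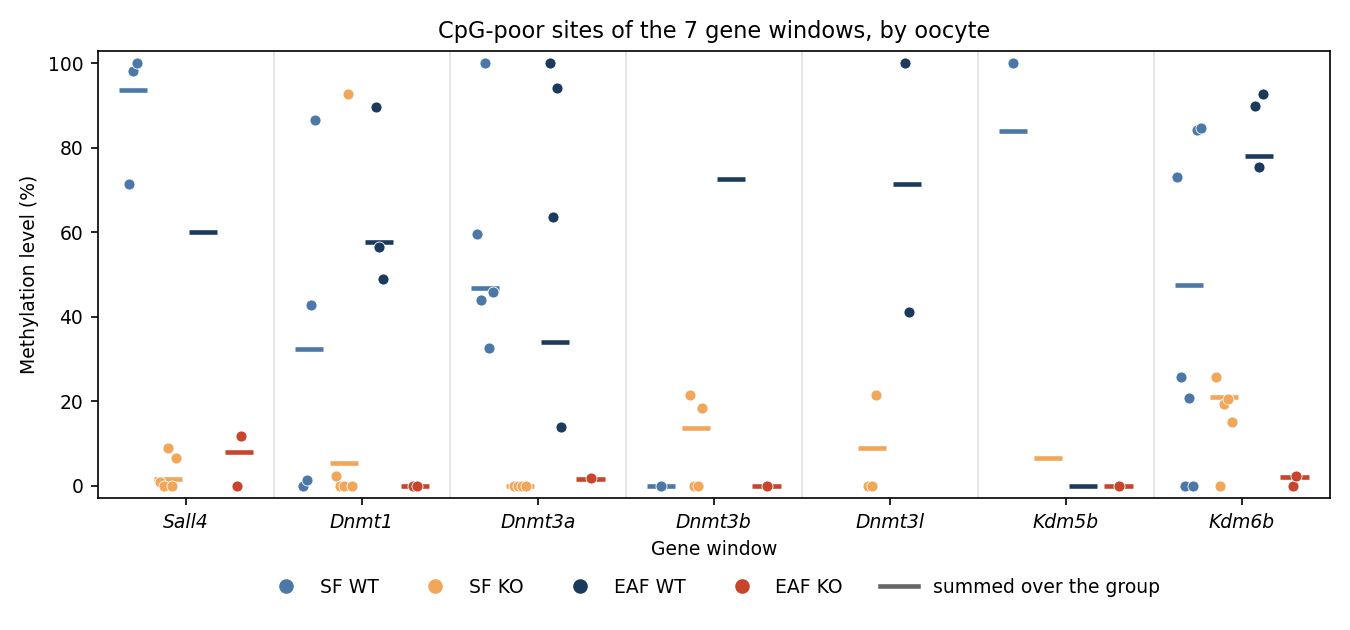
Methylation level of the CpG-poor sites of each gene window (percent), 1 point for each oocyte with at least 10 reads there, coloured by group; the horizontal bar is the level of the reads summed over the group, drawn for groups with at least 10 reads. WT oocytes reach 70% and above for Sall4, Dnmt1, Dnmt3a, Dnmt3l, Kdm5b and Kdm6b, while 1 of the 26 SF KO points and 0 of the 9 EAF KO points lie above 50%, the 1 being Dnmt1 in SF KO replicate 4 at 92.9%.

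Counted as pairs of a gene and an oocyte with at least 10 reads, 10 of 21 SF WT pairs and 9 of 12 EAF WT pairs were at 50% or more, against 1 of 26 SF KO pairs and 0 of 9 EAF KO pairs. Over all 50 kb bins of the genome, the corresponding shares were 19.8% in SF WT, 25.6% in EAF WT, 10.5% in SF KO and 7.38% in EAF KO. Pairs with no methylated read numbered 4 in SF WT, 0 in EAF WT, 14 in SF KO and 6 in EAF KO, beside genome shares of 44.2%, 38.9%, 50.3% and 55.2%. Pairs of 1 oocyte share its library and pairs of 1 gene share CpGs, so they are not independent.

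Windows were compared between groups where each group had at least 20 CpG-poor reads from at least 2 oocytes. At SF this held for Sall4, Dnmt1, Dnmt3a and Kdm6b, and all 4 were lower in KO by at least 20 points, where 23.1% of 21583 bins of 50 kb were and 8.05% were higher. Their median difference was -36.8 points, beside -0.71 over all bins. At EAF it held for Dnmt1, Dnmt3a and Kdm6b, and all 3 were lower in KO by at least 20 points, where 31.9% of 10072 bins were and 5.28% were higher, with a median of -57.7 points beside -7.27. Bins are as large as the windows only roughly, and the windows range from 22 to 115 kb. Bins were not matched to the windows by WT level, and a bin below 20% in WT cannot be lower in KO by 20 points. The shares therefore do not compare the windows with sites of similar WT level.

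**Figure D2:**
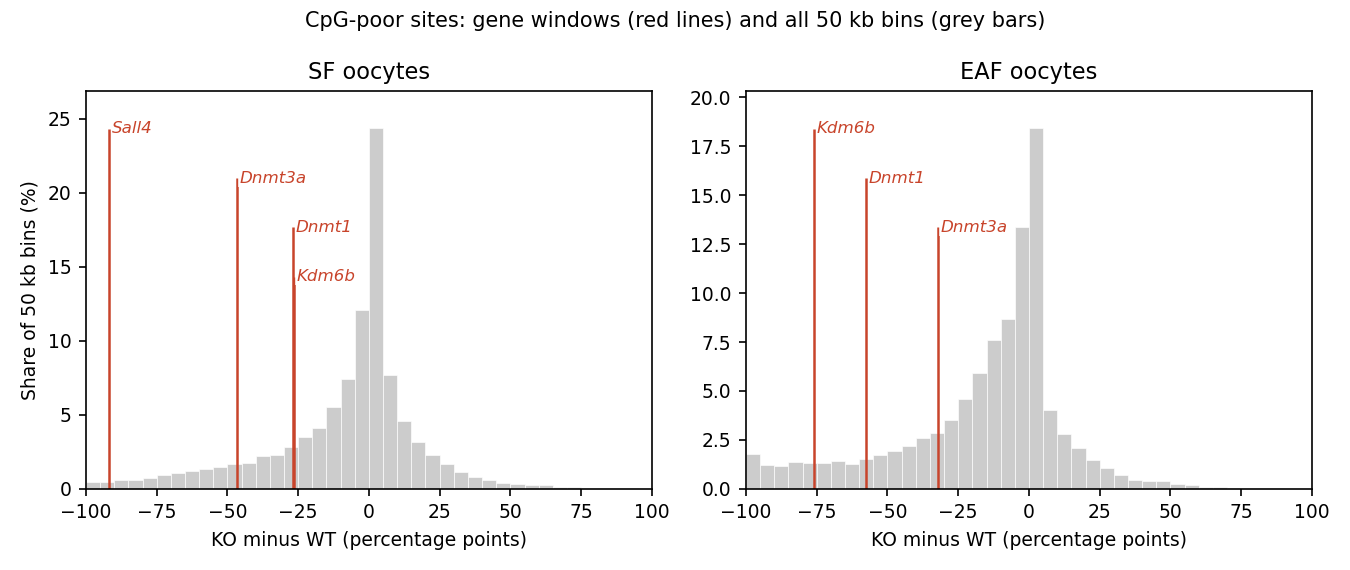
KO minus WT difference in methylation level at CpG-poor sites (percentage points; horizontal axis) for the gene windows that could be compared (red lines, whose heights carry no value) and for all 50 kb bins of the genome (grey bars, share of bins in percent; vertical axis), in SF oocytes on the left and EAF oocytes on the right. The lines run from -91.9 to -26.6 at SF and from -75.9 to -32.3 at EAF, left of the bulk of the bins.

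Of the windows compared, Sall4 had the largest difference at SF. Its CpG-poor sites were methylated in 439 of 469 reads (93.6%, exact 95% interval 91.0 to 95.6) in SF WT and in 18 of 1053 (1.71%, 1.02 to 2.69) in SF KO, a difference of -91.9 points. The SF WT oocytes with at least 10 reads were at 71.4%, 98.3% and 100% (replicates 4, 6 and 7) and the SF KO oocytes at 0.93%, 0%, 9.02%, 0% and 6.67% (replicates 1 to 5). The WT and KO oocytes do not overlap. At EAF, 9 of 15 reads were methylated in WT, too few for a comparison, and 7 of 87 (8.05%) in KO.

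Most of that contrast rests on 1 stretch of 17 CpG-poor CpGs, chr2:168580006-168580549, about 10 kb into the window. In it 70 of 98 reads were methylated in SF WT replicate 4, 116 of 118 in replicate 6, 246 of 246 in replicate 7 and 9 of 9 in EAF WT replicate 2. The KO oocytes with reads there had 0 of 54 (SF KO replicate 2), 0 of 576 (replicate 4), 2 of 41 (replicate 5) and 5 of 47 (EAF KO replicate 2). All 4 WT oocytes were at 71.4% or more and all 4 KO oocytes at 10.6% or less. CpGs of a stretch share reads and are not separate observations.

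A second stretch, of 16 CpGs at chr2:168575639-168575918, had 8 of 8 methylated reads in SF WT replicate 7 and 0 of 27 in SF KO replicate 1, the oocytes in which it was read. A CpG-dense stretch, chr2:168592412-168592669, with 22 CpGs of which 21 are dense, had 0 of 1727 methylated reads in 4 WT oocytes and 0 of 463 in 4 KO oocytes. This would allow levels of up to 0.174% and 0.648% if each count were separate, but a read is counted at each CpG it spans. The stretch beside it, chr2:168591252-168591855, had 5 of 70 methylated reads in WT and 0 of 39 in KO. A stretch of 21 CpGs next to the methylated one, chr2:168580970-168581369, was read in 4 KO oocytes only, with 18 of 208 reads methylated. Over all CpG-dense sites of the window the levels were 0.53%, 0%, 0.30% and 0.57% in SF WT, SF KO, EAF WT and EAF KO.

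**Figure D3:**
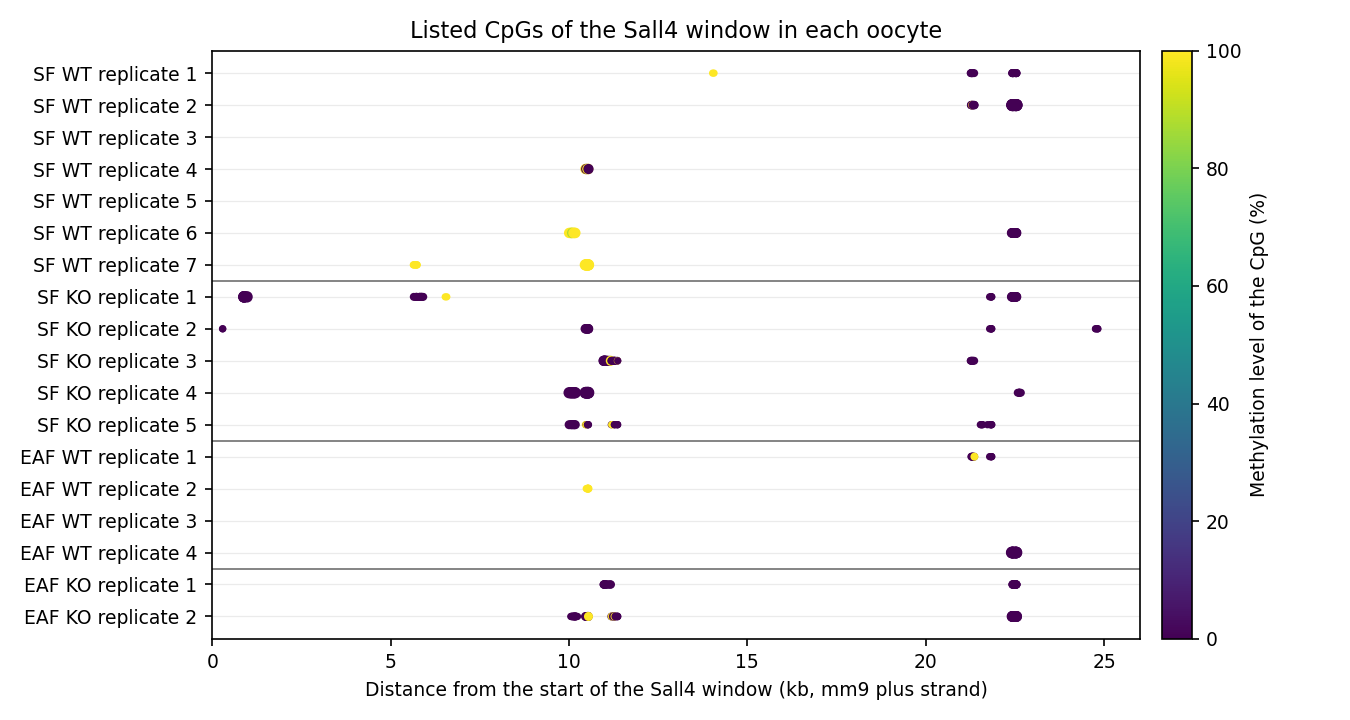
Listed CpGs of the Sall4 window by oocyte (rows) and distance from the start of the window (kb), coloured by methylation level (percent), with larger points for more reads. The CpGs near 10 kb are yellow (methylated) in WT rows and dark in most KO rows, and those near 22 kb are dark in rows of both genotypes.

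Reads in the Sall4 window bear on the label of the deleted gene only if the floxed part is covered, and where that part lies is not given in the sources used here. All 7 KO oocytes had reads in the window, as did 8 of 11 WT oocytes, with none in SF WT replicates 3 and 5 and EAF WT replicate 3. KO oocytes listed 111 of the 116 CpGs and WT oocytes 59. Of 10 stretches of listed CpGs, 4 were read in both genotypes, 5 in KO only, and 1 in WT only, and that one had 2 CpGs and 2 reads in 1 oocyte. None of the 2 tiles of 1 kb listed in at least 4 WT oocytes was absent from all KO oocytes, where 1.55% of 34238 such tiles of the genome were. These reads therefore do not show a deleted stretch, and they check nothing outside the few fragments covered.

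Scaled to 1000000 reads of its library (RPM), the Sall4 window had 13.2, 262, 0, 95.1, 0, 193 and 346 reads in SF WT replicates 1 to 7 and 60.5, 10.3, 31.1, 159 and 16.1 in SF KO replicates 1 to 5. It had 20.3, 9.18, 0 and 341 in the EAF WT oocytes and 69.2 and 90.3 in the EAF KO oocytes. The KO values lie within the WT range at both stages. The mean was 116 ± 142 (SD, n = 11 oocytes) in WT and 62.4 ± 51.8 (SD, n = 7 oocytes) in KO, a ratio of 0.54, and the ratio of listed CpGs, scaled to those of the library, went the other way, at 1.56, as did the ratio with reads of the other 6 windows as the base, at 1.18. For the other 6 windows together the KO to WT ratio of RPM was 1.32.

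**Figure D4:**
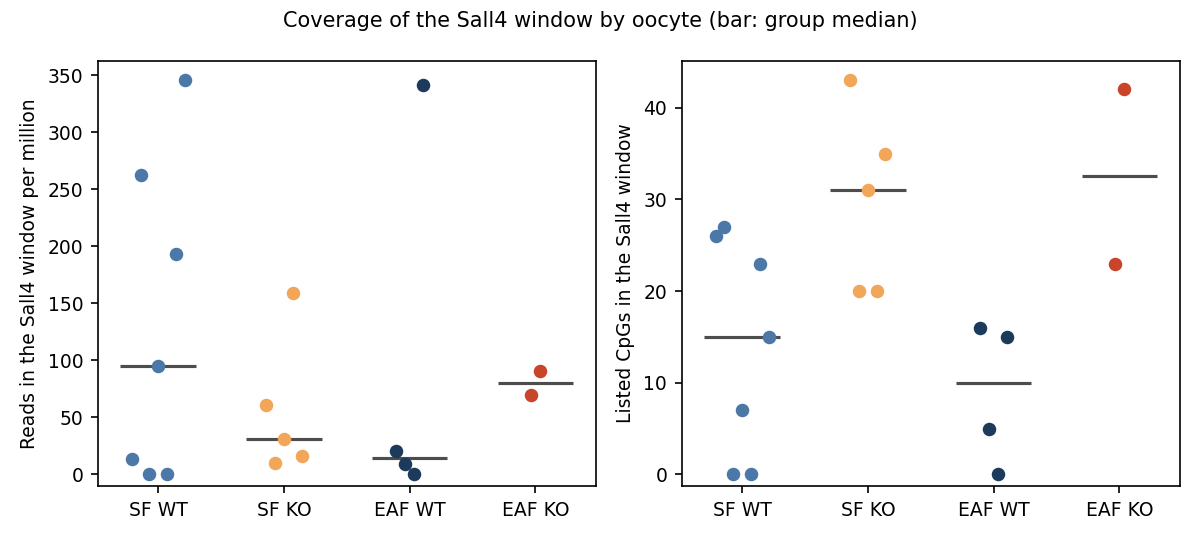
Reads in the Sall4 window scaled to 1000000 reads of the library (RPM, left) and listed CpGs in the window (right), 1 point per oocyte, with the group median as a bar. KO oocytes had from 10.3 to 159 RPM, within the WT range of 0 to 346.

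Among the methyltransferases, Dnmt1, the maintenance enzyme, was methylated at CpG-poor sites in 101 of 313 reads (32.3%, 27.1 to 37.8) in SF WT and 16 of 298 (5.37%, 3.10 to 8.57) in SF KO. The SF oocytes overlap: WT replicates 1, 2, 5 and 7 were at 0%, 1.37%, 42.8% and 86.7%, and KO replicates 1 to 5 at 2.22%, 0%, 0%, 92.9% and 0%. The SF difference of -26.9 points is under 20 without SF WT replicate 5 (-18.6) or replicate 7 (-17.8) and is -13.7 as a difference of oocyte means. At EAF the reads were 113 of 196 (57.7%, 50.4 to 64.7) in WT and 0 of 150 in KO, which allows up to 2.00%. The EAF WT oocytes were at 89.7%, 56.5% and 48.9% (replicates 2 to 4), with 7 of 7 reads in replicate 1, and both KO oocytes were at 0%.

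The EAF contrast of Dnmt1 lay mostly in 7 CpGs at chr9:20728656-20728840. There 22 of 22 reads were methylated in EAF WT replicate 2 and 65 of 135 in replicate 4, against 0 of 10 and 0 of 124 in the EAF KO oocytes. In SF oocytes the same CpGs were unmethylated in both genotypes, with 0 of 69 reads in SF WT replicate 2 and 0 of 65 in SF KO replicate 1. Towards the low-coordinate end of the window, chr9:20713567-20713760 had 55 of 113 methylated reads in SF WT replicate 5, 34 of 40 in SF WT replicate 7 and 13 of 23 in EAF WT replicate 3, and 0 of 21 in SF KO replicate 5. The one high KO value came from 3 CpGs at chr9:20725200-20725312, with 13 of 13 reads methylated in SF KO replicate 4 and 0 of 25 in SF KO replicate 1.

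CpG-dense sites of Dnmt1, 15 of 19 of which lie at and beside the start printed above, had 108 of 799 methylated reads (13.5%) in SF WT and 0 of 1934 in SF KO, which allows up to 0.155%. The 3 SF WT oocytes with at least 10 reads were at 4.82%, 15.0% and 12.2% (replicates 1, 2 and 6) and both such KO oocytes at 0%. The methylated reads sat at a few CpGs and not along the whole stretch. In SF WT replicate 2 the CpGs at 20757005 and 20757026 were methylated in 33 of 33 and 34 of 34 reads and none of the other CpGs in any. Position 20757026 is the last capital CG of the printed Dnmt1 sequence, and the CG directly before it, 20757028, was at 0 of 36. In SF WT replicate 6 the highest CpG was another one, 20757068, the third capital CG, with 14 of 20 reads, where replicate 1 had 2 of 6 and replicate 2 had 0 of 35. In SF KO replicates 2 and 5 all 3 of these positions were at 0 of 24 and 0 of 114 to 117 reads. Whether the reads of an oocyte are PCR copies of 1 molecule was not tested. Over the 10 printed positions the level was 10.9% (60 of 551 reads) in SF WT and 0% (0 of 1370) in SF KO, and the EAF oocytes had no reads there.

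**Figure D5:**
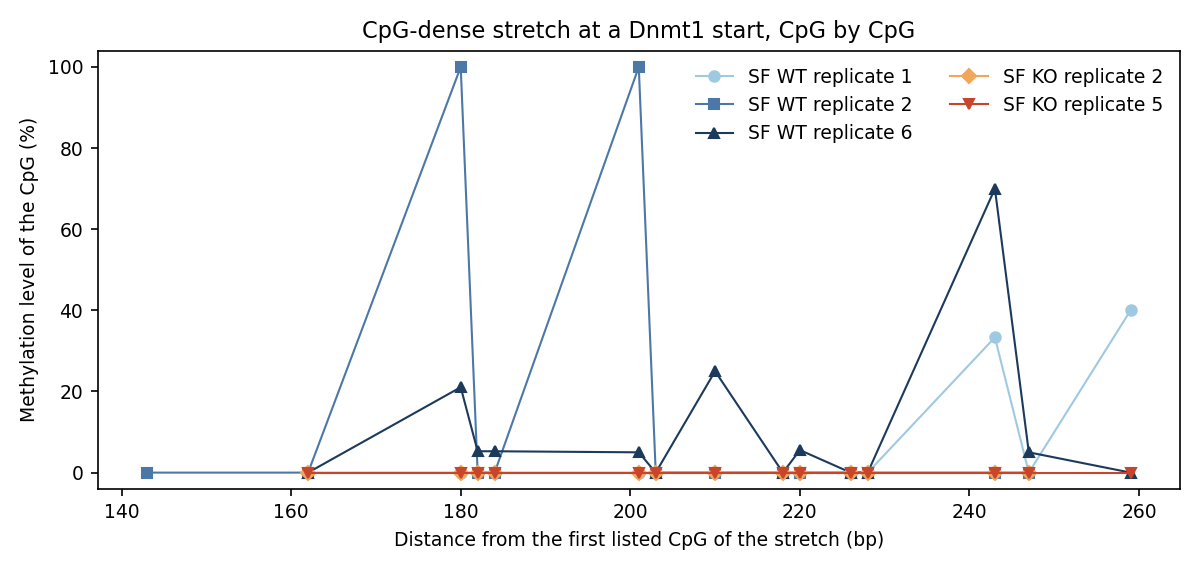
Methylation level of each CpG (percent) along the CpG-dense stretch at the printed Dnmt1 start, by distance from its first listed CpG (bp), in the 5 SF oocytes with at least 50 reads there and for CpGs with at least 2 reads. Both KO oocytes are at 0% throughout. The highest CpG differs among the 3 WT oocytes, SF WT replicate 2 having 2 positions with 100%. Some CpGs are raised in more than 1 WT oocyte: at 243 bp replicates 1 and 6 are at 33.3% and 70%, and at 180 bp replicates 2 and 6 are at 100% and 21.1%.

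Dnmt3a, the main enzyme of new methylation in oocytes, was unmethylated at every CpG-poor read of the SF KO oocytes, 0 of 583, which allows up to 0.515%, and at 144 of 308 (46.8%, 41.1 to 52.5) in SF WT. The SF WT oocytes with at least 10 reads were at 59.7%, 44.1%, 100%, 32.6% and 45.8% (replicates 1, 2, 4, 5 and 6) and the 4 such SF KO oocytes all at 0%, with no overlap. At EAF the level was 34.0% (53 of 156 reads, 26.6 to 42.0) in WT and 1.66% (3 of 181, 0.34 to 4.77) in KO. The EAF WT oocytes were at 100%, 63.6%, 94.1% and 14.04%, and EAF KO replicate 2 at 1.74%. The EAF difference of -32.3 points leans on how EAF WT replicate 4 is weighed, being -86.4 without it, -18.3 over CpGs listed in both groups and 0 over CpGs with at least 10 reads in an oocyte. Of the 114 reads of EAF WT replicate 4, 92 fell in 1 fragment, chr12:3891713-3891930, and none of these was methylated. The other WT oocytes read in that fragment had no methylated read there either.

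The same Dnmt3a fragments were read in several oocytes of both genotypes. At chr12:3907053-3907061, 2 CpGs had 25 of 34, 26 of 54 and 15 of 15 methylated reads in SF WT replicates 1, 2 and 4 and 4 of 4 in EAF WT replicate 3, against 0 of 188 in 5 KO oocytes, so that no KO read there was methylated. At chr12:3912465-3912594, 3 CpGs had 18 of 35 and 11 of 19 in SF WT replicates 5 and 6, 10 of 10 in EAF WT replicate 1 and 0 of 5 in SF WT replicate 2, against 0 of 92 in 4 KO oocytes. At chr12:3883724-3883833, 4 CpGs had 16 of 19 in 3 WT oocytes and 0 of 269 in 5 KO oocytes. At chr12:3895813-3895943, 4 CpGs had 45 of 59 in 4 WT oocytes and 0 of 79 in SF KO replicate 3 alone. Not all of the window did so: 12 CpGs at chr12:3891713-3891930 had 0 of 112 methylated reads in 3 WT oocytes and 3 of 59 in 3 KO oocytes. By coordinates these CpGs may overlap Dnmt3a promoter 3, which was not placed. The dense start region printed above was unmethylated where it was read, in 0 of 28 reads of SF WT replicate 1 and 0 of 4 of EAF KO replicate 2.

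Dnmt3b, the other new-methylation enzyme, and Dnmt3l, the cofactor, were read in few oocytes. The dense sites of Dnmt3b, all within chr2:153475422-153475920, had 77 of 257 methylated reads (29.96%, 24.4 to 36.0) in SF WT and 0 of 397 in SF KO, and 0 of 173 in EAF KO replicate 2. The SF WT value comes from 56 of 228 reads in replicate 2 and 21 of 29 in replicate 6, and is 72.4% without replicate 2. These WT oocytes were read at different CpGs, replicate 6 from 153475422 to 153475496 and replicate 2 from 153475572 to 153475665. At the CpGs of replicate 6 the only KO reads were single reads of SF KO replicate 2. The 72.4% is thus not matched by KO reads of similar depth at the same CpGs. In replicate 2 the methylated reads were again at single CpGs, 19 of 19 at 153475631, 17 of 17 at 153475646 and 20 of 20 at 153475655, with the other 9 dense CpGs at 0. SF KO replicate 1 had the same 12 CpGs at 0 of 316 reads. CpG-poor sites of Dnmt3b had 0 of 59 methylated reads in SF WT, all from replicate 2, and 39 of 285 (13.7%) in SF KO, where replicates 1 and 5 were at 21.5% and 18.4% and replicates 2 and 3 at 0%. Over the 3 CpGs read in both groups they were at 0 of 59 in WT and 0 of 91 in KO, and for want of another WT oocyte the window was not compared. At chr2:153499957-153499966, 2 CpGs were fully methylated in both genotypes, 20 of 20 reads in SF KO replicate 1 and 6 of 6 in EAF WT replicate 4.

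Dnmt3l was read in 1 SF WT, 3 SF KO, 2 EAF WT and 0 EAF KO oocytes, so neither genotype comparison could be made. Its 6 CpGs at chr10:77520036-77520179 were methylated in 18 of 18 reads of EAF WT replicate 1 and 7 of 7 of replicate 4, and in 0 of 53 of SF KO replicate 2 and 30 of 130 of SF KO replicate 5. These WT and KO oocytes are of different stages. Its dense sites at chr10:77506112-77506360 were at 0 of 38 reads in SF WT replicate 2 and 0 of 10 in SF KO replicate 2.

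The histone demethylase genes differed in how much was read. Kdm6b, the lysine 27 demethylase, had the most CpGs, and its CpG-poor sites were methylated in 385 of 808 reads (47.6%, 44.2 to 51.2) in SF WT and 393 of 1866 (21.1%, 19.2 to 23.0) in SF KO. The SF WT oocytes were at 73.0%, 25.8%, 0%, 20.8%, 0%, 84.2% and 84.7% (replicates 1 to 7) and the SF KO oocytes at 25.7%, 0%, 19.3%, 20.5% and 15.2% (replicates 1 to 5), so that WT replicates 1, 6 and 7 lie far above the KO oocytes and the other WT oocytes do not. The SF difference of -26.6 points is -18.2 without SF WT replicate 1 and -32.1 without SF KO replicate 1. At EAF the level was 78.1% (153 of 196 reads, 71.6 to 83.6) in WT and 2.15% (9 of 419, 0.99 to 4.04) in KO. The EAF WT oocytes with at least 10 reads were at 90.0%, 75.6% and 92.9% (replicates 2 to 4) and the KO oocytes at 0% and 2.43%, with no overlap.

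Fragments of the Kdm6b window behaved differently. In chr11:69217562-69218449, with 37 CpGs, the 6 WT oocytes read ran from 70.5% to 100% and the 6 KO oocytes from 0% to 51.7%, the highest being SF KO replicate 1 with 299 of 578 reads. In chr11:69220806-69221079, with 11 CpGs, 139 of 167 reads were methylated in SF WT replicate 1, 24 of 41 in replicate 2 and 94 of 94 in EAF WT replicate 3, against 0 of 289, 0 of 42 and 0 of 90 in SF KO replicates 1 and 2 and EAF KO replicate 2. At the low-coordinate edge, chr11:69209275-69209705 was unmethylated in both, with 2 of 516 reads in 4 WT oocytes and 0 of 352 in 5 KO oocytes. In chr11:69223495-69223921 the KO oocytes were not the lower ones, with 24 of 133 reads methylated, all in SF KO replicate 4, and 2 of 124 in WT. In chr11:69222675-69222955, with 15 CpGs, the SF WT oocytes were low and the EAF WT oocytes high, at 17.4%, 0%, 0%, 17.2% and 66.7% in SF WT replicates 1, 2, 3, 4 and 6 and 73.3% and 100% in EAF WT replicates 2 and 4. The KO oocytes there were at 11.7%, 0% and 0% (SF KO replicates 1 to 3) and 0% (EAF KO replicate 2, 0 of 232 reads). The CpG-dense sites of Kdm6b were at 28.7%, 14.6%, 16.2% and 5.15% in SF WT, SF KO, EAF WT and EAF KO. All methylated dense reads of SF KO came from replicate 1, at 24.3%, the other SF KO oocytes being at 0%. The 2 EAF KO oocytes were at 0% and 23.8%. Without SF KO replicate 1 the SF dense difference of -14.04 points is -28.7. The EAF dense difference of -11.1 points changes sign, being 7.58 without EAF KO replicate 2 and 0.30 as a difference of oocyte means.

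Kdm5b, the lysine 4 demethylase, was read mostly in dense sequence, and that was unmethylated in every group, with 0 of 15, 0 of 78, 0 of 30 and 0 of 22 reads in SF WT, SF KO, EAF WT and EAF KO. With 1 oocyte each, these counts allow levels of up to 20%, 3.85%, 10% and 13.6%. The printed start region was at 0 of 10 reads in SF WT replicate 1. Its only fully methylated fragment, 2 CpGs at chr1:136511267-136511412, was read in SF WT replicate 5 alone, with 37 of 37 reads. No genotype comparison of its CpG-poor sites could be made.

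Over the 7 windows together, CpG-dense sites were at 10.6% (269 of 2533 reads) in SF WT, 3.19% (106 of 3321) in SF KO, 5.12% (51 of 996) in EAF WT and 1.02% (7 of 688) in EAF KO. The dense difference of the 7 windows rests on single oocytes: at EAF it was -4.10 points, -13.1 without EAF WT replicate 4, -0.13 without EAF WT replicate 3, -0.70 without EAF KO replicate 2 and -0.54 over CpGs listed in both groups. The SF value was -7.43 points, with -4.38 when SF KO replicate 5 was left out and -13.3 when SF WT replicate 2 was. Genome-wide dense levels were 8.67%, 10.9%, 14.6% and 8.16%. Pairs of a gene and an oocyte at 50% or more numbered 2 of 17, 0 of 14, 0 of 5 and 0 of 8 in these groups, beside 12.5%, 10.3%, 16.0% and 8.04% of pairs over all bins. Of 4 windows with enough dense reads at SF, 1, Dnmt3b, was lower in KO by at least 20 points, where 7.24% of dense bins were. Of 2 at EAF, Sall4 and Kdm6b, none was, where 13.2% were.

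From SF to EAF the WT level at CpG-poor sites was 25.4 points higher for Dnmt1 and 30.4 points higher for Kdm6b, so 2 of 3 windows compared were higher by at least 20 points, where 21.9% of bins were, and none was lower by that much, where 8.59% were. The Dnmt1 value is under 20 without SF WT replicate 1 (18.5), SF WT replicate 2 (16.0) or EAF WT replicate 2 (19.8) and over CpGs listed in both groups (16.6), and the Kdm6b value is 14.3 in a window widened by 5 kb. The third window, Dnmt3a, was 12.8 points lower in sum, but 41.3 points higher without EAF WT replicate 4 and 11.5 points higher as a difference of oocyte means, so it has no clear direction. Over all 7 windows the WT stage difference was 3.21 points, and it ran from -6.52 without SF WT replicate 2 to 21.0 without EAF WT replicate 4, beside 7.14 points over the genome. In KO oocytes the stage difference of the 7 windows was -9.15 points, -5.56 without SF KO replicate 1 and -3.84 over CpGs listed in both groups. Among the windows compared Kdm6b differed most, at -18.9 points, and -13.4 without SF KO replicate 1.

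Few tiles of 1 kb in the windows were read in enough oocytes, with the same limits of 20 reads and 2 oocytes in each group. At SF, 5 of 7 CpG-poor tiles of the windows were lower in KO by at least 20 points and 1 was higher, where 20.5% and 8.62% of 20174 tiles of the genome were. The median difference of the 7 tiles was -49.2 points beside 0 over all tiles. Of these tiles 4 lay in Kdm6b, 2 in Dnmt3a and 1 in Sall4, so they do not stand for all 7 windows. Tiles of 1 window share oocytes and are not independent, and tiles were not matched by WT level. Without SF KO replicate 1, 3 of 4 tiles were lower. The tiles named by rule include chr2:168580001-168581000 in Sall4, with 93.5% in SF WT and 0.28% in SF KO, and chr12:3907001-3908000 in Dnmt3a, with 64.1% and 0%. At EAF both tiles compared were lower, where 22.9% of 5247 were. They were chr9:20728001-20729000 in Dnmt1, with 55.4% in WT and 0% in KO, and chr11:69217001-69218000 in Kdm6b, with 100% and 12.3%. Among 8 dense tiles at SF, 2 were lower and 2 higher by that much, where 6.76% and 3.57% were. One of the higher ones was chr11:69211001-69212000 in Kdm6b, with 0 of 40 reads in SF WT and 51.7% of 60 reads in SF KO.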

How the data were processed

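MspI digestion, bisulfite conversion and PCR were done on each oocyte separately, per the labels. The submitters' processing notes name BSMAP 2.89 and mm9. The tables deposited by the authors hold, per CpG and over both strands, a read count and a methylated count, and their lowest listed count is 1 read. Also deposited is the fraction of methylated reads, recomputed here as a percentage. Upstream filters are not given in these sources, and the spiked lambda DNA was not analysed here.

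Chromosomes Y and M were left out. Methylated and total counts were summed over CpGs and oocytes of a group, so deep oocytes weigh more, and means over oocytes used those with at least 10 reads. Exact binomial intervals are at 95% and a level of 0 is given the limit that 3 reads allow. Both treat each count as separate, but a read is counted at each CpG it spans and PCR copies are not separate molecules. The intervals are therefore too narrow and the limits too low, and neither covers the spread between oocytes. Differences of at least 20 points were counted, and no p-value was computed, because each group counts as 1 sample. Tiles of 1 kb and bins of 50 kb needed at least 20 reads from at least 2 oocytes in each group. Tiles named are, in each window, at most the 2 with the largest KO minus WT difference at each stage and the tile with most reads. Tile counting was checked on simulated counts. The members and lists were chosen with earlier results of these data known. A promoter rule asking for 80% of the CGs placed none of 11 promoters, and the rule used, the 50 kb bins, the gene and oocyte pairs and the stretches (CpGs at most 300 bp apart) were added after the data were seen. Alternatives changed the read minimum, weighting, density rule, window, tile and the oocytes included. Software was pandas 2.3.3, numpy 2.4.6, matplotlib 3.10.9 and scipy 1.17.1 under Python 3.11.15.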

Additional observations from a re-analysis of the deposited data

Results flagged for a closer look

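In 12 of 37 groups of oocytes looked at, 1 oocyte lay far from the others by Dixon's test for outliers. The nominal rate of that test, about 1 in 20 groups, assumes normal values and independent groups. Many values here are 0 and the groups of the 7 windows reuse those of single genes, so the count was not judged against that rate. At CpG-poor sites of Dnmt1, SF KO replicate 4 was at 92.9% and the nearest SF KO oocyte at 2.22%. That level rests on 14 reads. At CpG-dense sites of Kdm6b, SF KO replicate 1 was at 24.3% and the other SF KO oocytes at 0%. Over the CpG-dense sites of the 7 windows the same oocyte was at 11.1%, with the others at 0%. Over these sites SF WT replicate 7 was at 50% of 34 reads and the nearest SF WT oocyte at 15.5%.

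The other 8 values are reads in a window scaled to 1000000 reads of the library (RPM). For Sall4, EAF WT replicate 4 had 341 and the nearest EAF WT oocyte 20.3, nearly all in the unmethylated dense stretch. For Dnmt1, SF KO replicate 5 had 429 and the nearest 49.4. For Dnmt3a, EAF WT replicate 4 had 60.0 and the nearest 12.9. For Dnmt3b, SF WT replicate 2 had 78.4 and the nearest 23.3, and for Dnmt3l it had 10.4 with the other SF WT oocytes at 0. For Kdm5b the high oocytes were SF WT replicate 5 with 18.0 (nearest 5.18), SF KO replicate 1 with 14.5 (nearest 2.17) and EAF WT replicate 3 with 19.6 (nearest 1.58).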

How the results depend on the processing

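With CpGs called dense from 20 neighbours, so that CpG-poor sites took in most dense ones, the EAF difference at CpG-poor sites of the 7 windows was -23.9 points in place of -56.3, the SF difference at the few CpGs still dense was -100 in place of -7.43, the WT stage difference of Kdm6b turned to -2.31 from 30.4, and the SF difference of Sall4 and the EAF difference of Kdm6b were -26.3 and -37.8. With 1 oocyte left out, the CpG-poor difference of the 7 windows ran from -74.0 to -51.0 at EAF and from -53.6 to -34.2 at SF. The count of CpG-poor tiles lower in KO ran from 3 to 6 at SF, with 3 of 4 without SF KO replicate 1, and from 1 to 2 at EAF, with 1 without EAF WT replicate 2 or 3. Without either EAF KO oocyte no EAF tile could be compared. Of 142 other settings of the 8 single-gene KO minus WT differences of at least 20 points, 141 kept the sign and 132 stayed at 20 points or more, and the remaining 10 were smaller: 5 for Dnmt1 at SF, among them -14.4 in a window widened by 5 kb, 3 for Dnmt3a at EAF, among them -18.6 over CpGs with at least 5 reads, and 2 for Kdm6b at SF, among them -12.0 with a density radius of 250 bp. The cause of these changes was not tested. The Sall4 ratio of RPM was 1.18 with the other 6 windows as the base and from 0.40 to 0.67 with 1 oocyte left out. Depth limits most single values: Dnmt3b, Dnmt3l and Kdm5b were mostly read in 1 or 2 oocytes of a group. No paired analysis was possible because the replicate numbers name oocytes only and pair none, and no difference between groups comes from a test.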
